A study of Ovis aries with 6 samples.

Results

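The genes described here are 8 members of the matrix metalloproteinase (MMP) system of the sheep ovary: the collagenase MMP1, the gelatinases MMP2 and MMP9, the membrane-bound MMP14, MMP19, and the tissue inhibitors of metalloproteinases TIMP1, TIMP2 and TIMP3. They were taken by name from the 30574 genes of the deposited count matrices, and all 8 were found there. One ovary from each of 6 adult Hu ewes in estrus was cut up, digested with collagenase and trypsin, and sequenced as 1 library of the 10x Genomics Chromium 3' chemistry per ewe. The HLS group (3 ewes) had litters of at least 3 lambs and the LLS group (3 ewes) had litters below 2, and the labels name no treatment or genotype. Each library is a different animal, so the spread between libraries includes the spread between ewes.

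MMPs are zinc endopeptidases that cut collagens, laminins, proteoglycans and many secreted proteins. Most are released as inactive proenzymes. Plasmin, other MMPs or furin remove the propeptide, and the TIMPs then hold the active enzymes by binding their catalytic site one to one. MMP14 sits in the cell membrane, where it activates proMMP2 with TIMP2 as a bridge, so that TIMP2 both inhibits and recruits. TIMP3 differs from the other TIMPs in that it stays bound to the matrix and also inhibits several ADAM and ADAMTS proteases. In the ovary this system is known for the remodelling of the follicle wall as follicles grow and rupture, and for the turnover of vessels and luteal tissue.

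After filtering, 36457 cells of 52290 barcodes were analysed, with 5189 to 7096 cells per ewe and a median of 5162 to 9629.5 unique molecular identifiers (UMI) per cell. Any pair of libraries shared 5 to 17 cell barcodes. Cells were clustered without the 8 members and 69 related genes, and each cluster was named "-like" from cell type markers. This gave 2895 granulosa-like, 1918 theca-like, 8108 stromal-like, 2609 perivascular-like, 14441 endothelial-like and 2823 immune-like cells, and the suffix is left out below. LLS1 held 68 of the theca cells. The markers were highest in the type they name apart from STAR, which was highest in immune cells, and OGN, which was highest in perivascular cells. A level is given throughout as the UMI of a gene per 10000 UMI of the summed cells of 1 type in 1 ewe, with the mean ± SD over the 6 ewes, and levels of different genes are not compared with each other.

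These genes were unevenly spread over the cell types. Over all cells the libraries held 460071 UMI of TIMP1, 92318 of TIMP2, 7488 of TIMP3, 6767 of MMP2, 3160 of MMP9, 1690 of MMP1, 1177 of MMP14 and 949 of MMP19. Granulosa cells, which held 8.52% of all UMI, held 91.9% of those of MMP1, 73.0% of those of MMP9 and 57.4% of those of TIMP1. For TIMP2, 42.9% of the UMI lay in stromal and 31.1% in theca cells, which held 16.6% and 8.74% of all UMI. Of the UMI of MMP2, 40.05% lay in endothelial cells, under their 43.5% of all UMI, and 37.5% in stromal cells. The UMI of MMP19 came mainly from stromal (37.3%), immune (29.6%) and perivascular cells (23.3%), the last 2 with 4.15% and 4.21% of all UMI. For TIMP3, 40.5% came from endothelial cells, the most numerous type, again under their share of all UMI.

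**Figure D1:**
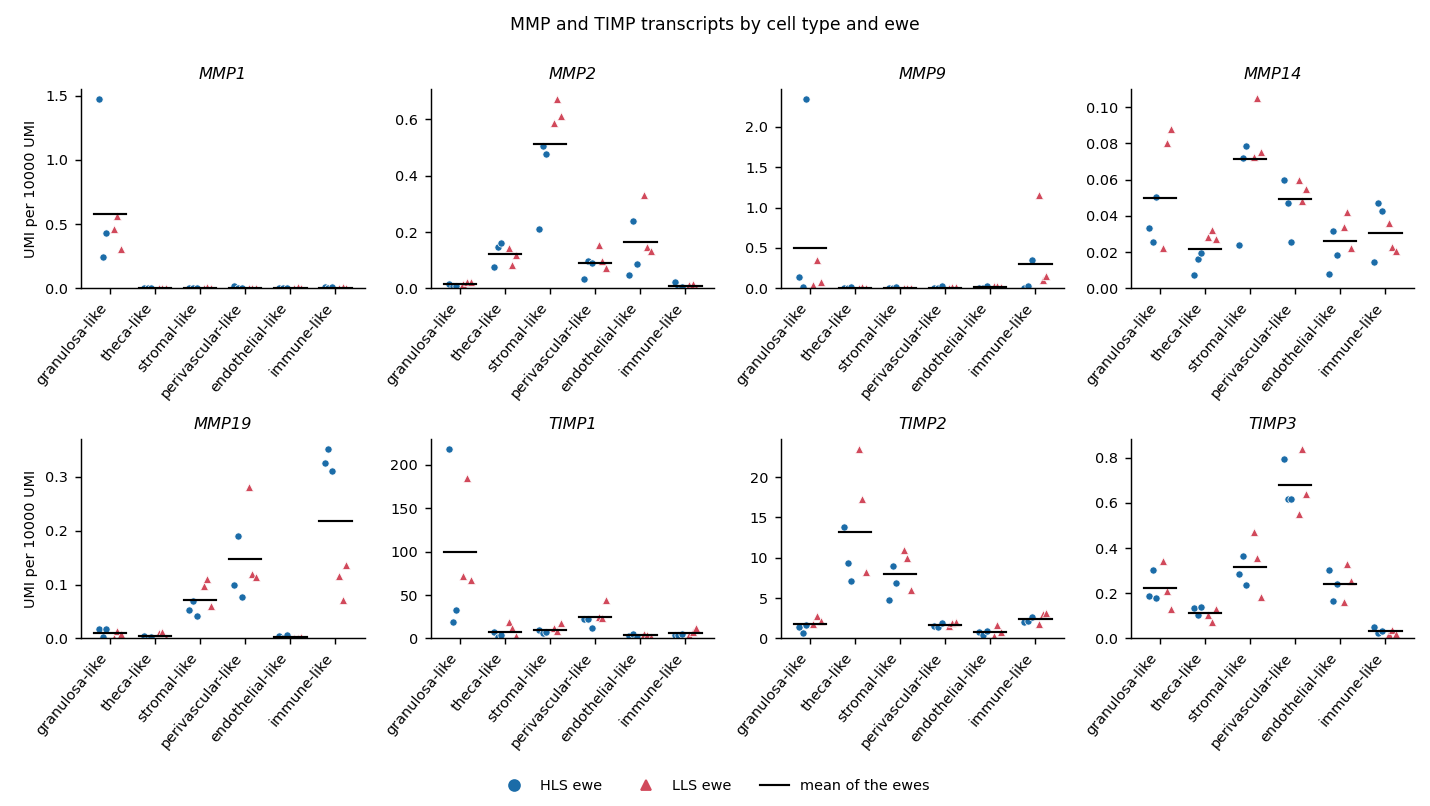
Level of each member (vertical axis, UMI per 10000 UMI) in the 6 cell types (horizontal axis), with a circle for each HLS ewe, a triangle for each LLS ewe and a line for the mean of the ewes. MMP1 stood at 0.244 to 1.47 in granulosa cells and at no more than 0.00593 on average in any other type.

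TIMP1, a soluble inhibitor of most secreted MMPs, was highest in granulosa cells. Its level there was 218 in HLS1, 19.2 in HLS2, 33.2 in HLS3, 71.9 in LLS1, 185 in LLS2 and 67.8 in LLS3 (99.2 ± 82.5, SD, n = 6). HLS1 and LLS2 stood above the other 4 ewes, one from each group. Perivascular cells came next at 24.9 ± 10.8, followed by stromal cells (10.3 ± 4.18), theca cells (7.997 ± 6.75), immune cells (5.99 ± 3.30) and endothelial cells (3.64 ± 1.34). The order of granulosa over perivascular cells held in 5 of 6 ewes and that of perivascular over stromal cells in 6 of 6, whereas stromal and theca cells kept their order in 4 of 6 and theca and immune cells in 3 of 6. TIMP1 was counted in every type, including cells named as B cells, where the level over all ewes together was 1.31. Within the endothelial cells the cluster led by CCL21 and carrying PROX1, a lymphatic transcription factor, had 14.1 ± 4.32. A cluster with luteal markers, in which 104 of 106 cells were from LLS3, had a TIMP1 level of 145 in that ewe.

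TIMP2 was a gene of theca and stroma. In theca cells it was 13.8 in HLS1, 9.32 in HLS2, 7.12 in HLS3, 23.5 in LLS1, 17.3 in LLS2 and 8.25 in LLS3 (13.2 ± 6.33, n = 6). Stromal cells had 4.77, 8.93 and 6.91 in HLS1 to HLS3 and 11.02, 10.03 and 6.001 in LLS1 to LLS3 (7.94 ± 2.44). Theca was above stroma in each of the 6 ewes, and stroma was above immune cells (2.47) in each of them. The remaining types had 1.75 ± 0.704 (granulosa), 1.70 ± 0.265 (perivascular) and 0.820 ± 0.471 (endothelial), and granulosa and perivascular cells kept their order in only 3 of 6 ewes. The stromal cells themselves were uneven: the cluster led by SERPINF1 and DPT that also expressed PI16, genes of adventitial fibroblasts, had 19.8 ± 6.07, the cluster led by PTCH1 and COL11A1 had 3.58 ± 1.01, and the cluster with ACTA2, a contractile actin, had 7.64 ± 2.04.

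TIMP3, the matrix-bound inhibitor, was highest in perivascular cells, at 0.795, 0.620 and 0.620 in HLS1 to HLS3 and 0.553, 0.840 and 0.640 in LLS1 to LLS3 (0.678 ± 0.113). It had the narrowest spread of the 8 genes between ewes relative to its mean in the type where it was highest. Stromal (0.316 ± 0.103), endothelial (0.243 ± 0.0693) and granulosa cells (0.226 ± 0.0811) followed within each other's spread, with stromal over endothelial in 3 of 6 ewes. Theca cells had 0.115, and immune cells had 0.0313, below theca in every ewe.

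MMP1, the interstitial collagenase that opens fibrillar collagen, was counted mainly in granulosa cells. Its granulosa level was 1.47 in HLS1, 0.244 in HLS2, 0.433 in HLS3, 0.460 in LLS1, 0.565 in LLS2 and 0.305 in LLS3 (0.5804 ± 0.453), from 1553 UMI. HLS1 alone stood above the range of the others. In the other types MMP1 was at the edge of detection, with 73 UMI in all endothelial cells, 32 in stromal, 7 in immune, 5 in theca and 3 in perivascular cells, the last all from HLS1.

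MMP2, gelatinase A, which degrades denatured and basement membrane collagen, was highest in stroma. The stromal levels were 0.212 in HLS1, 0.506 in HLS2, 0.475 in HLS3, 0.586 in LLS1, 0.673 in LLS2 and 0.613 in LLS3 (0.511 ± 0.163). Every stromal value was above the endothelial value of the same ewe. Endothelial cells of the HLS group had 0.0463, 0.241 and 0.0883, those of the LLS group 0.333, 0.145 and 0.132 (0.164 ± 0.105 over all), with HLS2 and LLS1 the highest. These are the ewes whose endothelial cells were mostly of the cluster expressing ESM1, a marker of growing capillaries: it made up 57.1% of the endothelial cells of HLS2 and 70.1% of those of LLS1, and its own MMP2 level was 0.416 ± 0.178, against 0.0960 in the cluster led by CA4. The part of this composition in the endothelial level was not tested. Theca (0.121 ± 0.0349) and perivascular cells (0.0902) kept their order in 4 of 6 ewes, and MMP2 was down to 38 UMI in granulosa and 12 UMI in immune cells.

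MMP9, gelatinase B, was counted in granulosa and immune cells, and each time 1 ewe held most of it. In granulosa cells it was 0.137 in HLS1, 0.0211 in HLS2, 2.35 in HLS3, 0.0443 in LLS1, 0.356 in LLS2 and 0.0836 in LLS3 (0.498 ± 0.913), and HLS3 gave 1998 of the 2306 UMI. Among immune cells the HLS ewes gave 0.00738, 0.0352 and 0.349, the LLS ewes 1.16, 0.11 and 0.157 (0.303 ± 0.438 over all), here with LLS1 the highest. Granulosa cells were above immune cells in 3 of 6 ewes, so the order of these types did not hold. Without HLS3 the granulosa mean was 0.129, and with cells named 1 by 1 from their own marker scores it was 0.179. The immune UMI came largely from the cluster with C1QA, C1QB and C1QC, complement genes of macrophages (461 UMI, 0.428 ± 0.58). All other types were low, with endothelial cells at 0.0203, but the CCL21 and PROX1 cluster had 0.190 ± 0.174. B cells had 0 UMI of MMP9, which allows a level of up to 0.0142.

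MMP14, the membrane-type MMP that activates proMMP2, had few UMI in any type and was the most evenly spread of the 8 genes over the types. It was highest in stromal cells, where the HLS ewes had 0.0239, 0.0717 and 0.0784, the LLS ewes 0.0725, 0.105 and 0.0752 (0.0711 ± 0.0263 over all). Granulosa (0.04996), perivascular (0.0491), immune (0.0307), endothelial (0.0260) and theca cells (0.0220) followed, and each neighbour in this order was above the next in only 3 or 4 of 6 ewes.

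MMP19, which cuts basement membrane proteins, was a gene of immune, perivascular and stromal cells. Immune cells had 0.325, 0.352 and 0.312 in HLS1 to HLS3 and 0.117, 0.0721 and 0.136 in LLS1 to LLS3 (0.219 ± 0.124). All HLS values were above all LLS values. In perivascular cells the levels were 0.0994, 0.191, 0.0767, 0.281, 0.12 and 0.114 in the same order (0.147 ± 0.0760), and stromal cells had 0.0718 ± 0.0266, below the perivascular value of the same ewe each time. Within the perivascular cells MMP19 belonged to the cluster with RGS5 and KCNJ8, pericyte genes (0.187), while the cluster with MYH11 and PLN, smooth muscle genes, had 5 UMI. Among stromal cells the DPT and PI16 cluster was the highest at 0.150. The gene was rare in granulosa (33 UMI), theca (7 UMI) and endothelial cells (0.00264).

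The types were next compared within ewes, with the UMI sums of each type and ewe fitted in edgeR's quasi-likelihood model and the ewe as a block. Changes are log2 fold changes ± SE, and p-values are adjusted over the 14480 genes tested by the method of Benjamini and Hochberg, with a threshold of 0.05. Between granulosa and stroma 7 of the 8 members passed, against 49.6% of all genes. MMP1 (6.35 ± 0.33, adjusted p = 4.27e-16), MMP9 (5.94 ± 0.73, adjusted p = 4.65e-08) and TIMP1 (3.02 ± 0.45, adjusted p = 1.62e-06) were higher in granulosa cells, in 6 of 6 ewes each. Stroma had only 32 UMI of MMP1 and 31 of MMP9, so the sizes for MMP1 and MMP9 are uncertain. Neither could pass the filter on low counts through stroma, so a call in the other direction was hardly possible. MMP2 (-5.15 ± 0.32), MMP19 (-2.69 ± 0.50), TIMP2 (-2.36 ± 0.29) and TIMP3 (-0.57 ± 0.22, adjusted p = 0.0300) were lower, in 6 of 6 ewes each. Granulosa cells had 38 UMI of MMP2 and 33 of MMP19, so the like limits hold for MMP2 and MMP19. The call of TIMP3 was lost without HLS1 (adjusted p = 0.0779) or without LLS2 (0.0625) and under 5 other settings. Without HLS3 the MMP9 difference was 4.93 and was still called. MMP14 differed by -0.52 ± 0.27 and did not pass.

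Theca and granulosa cells, which face each other across the follicular basement membrane, had nearly opposite sets. Again 7 of 8 members passed, against 46.1% of all genes. Theca had more TIMP2 (3.18 ± 0.30, adjusted p = 3.51e-10) and MMP2 (3.32 ± 0.35, adjusted p = 2.81e-09), each in 6 of 6 ewes. It had less MMP1, MMP9 (-6.07 ± 0.87) and TIMP1 (-3.43 ± 0.46) in 6 of 6 ewes, and less MMP14 (-1.11 ± 0.33) and TIMP3 (-0.65 ± 0.24) in 5 of 6. With 5 UMI of MMP1 in theca cells, no size is given for its difference. The size for MMP9 is uncertain, since theca cells had 14 UMI of it, with 0 in HLS2 and LLS1. Neither MMP1 nor MMP9 could pass the filter on low counts through theca, so a call with theca higher was hardly possible. Without HLS3 the MMP9 difference was -5.06, and with cells named 1 by 1 from their own marker scores -4.30, and it was still called in both. The call of TIMP3 was lost without HLS2, LLS1 or LLS2 (adjusted p = 0.170, 0.0551 and 0.0770), and that of MMP14 with cells named 1 by 1 from their own marker scores (0.105).

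Theca differed from stroma in 5 of 8 members, against 47.3% of all genes. TIMP2 was higher in theca (0.82 ± 0.28, adjusted p = 0.0151, 6 of 6 ewes), although without HLS1 the difference was 0.64 with an adjusted p of 0.105. MMP2 (-1.83 ± 0.24), MMP14 (-1.63 ± 0.31), MMP19 (-4.56 ± 0.67) and TIMP3 (-1.23 ± 0.23) were lower in theca in 6 of 6 ewes. The size for MMP19 is uncertain, since theca cells had 7 UMI of it, with 0 in HLS2 and LLS3. TIMP1 differed by -0.41 ± 0.42 and did not pass. The 9 immediate early genes, which respond to tissue dissociation, were all lower in theca than in stroma, and 7 of them were lower in granulosa cells than in stroma. Their part in the differences between types was not tested.

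The vessel wall and its lining differed in most members. Perivascular cells differed from stroma in 5 of 8, against 36.8% of all genes, with TIMP3 (1.03 ± 0.21, adjusted p = 2.50e-04), TIMP1 (1.19 ± 0.42, adjusted p = 0.0250) and MMP19 (1.001 ± 0.39, adjusted p = 0.0433) higher and MMP2 (-2.61 ± 0.27) and TIMP2 (-2.31 ± 0.29) lower. The MMP19 call was lost when any 1 of 5 ewes was left out, in each case except LLS2 (adjusted p up to 0.140), and under 4 other settings. The TIMP1 call was lost without HLS2 or LLS2 (0.0731 and 0.0681) and under 2 other settings. Endothelial cells differed from stroma in 6 of 8, against 61.8% of all genes. MMP9 was higher in endothelial cells (2.16 ± 0.81, adjusted p = 0.0213), a call lost without HLS2 or LLS2 (0.0734 and 0.0655) and under 3 other settings, and MMP2 (-1.68 ± 0.22), MMP14 (-1.37 ± 0.26), MMP19 (-4.76 ± 0.49), TIMP1 (-1.36 ± 0.43) and TIMP2 (-3.30 ± 0.30) were lower. The TIMP1 difference was between -0.62 and -0.66 and did not pass when the mitochondrial limit or the clustering resolution was changed.

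Perivascular and endothelial cells differed in 6 of 8 members, against 56.2% of all genes. The 3 inhibitors were all higher in perivascular cells, TIMP1 by 2.55 ± 0.44, TIMP2 by 0.99 ± 0.28 and TIMP3 by 1.33 ± 0.21, in 6 of 6 ewes each. MMP19 was higher by 5.76 ± 0.51 and MMP14 by 0.90 ± 0.30, the latter not without HLS1 (0.56, adjusted p = 0.116). Endothelial cells had 31 UMI of MMP19, so its sizes against perivascular cells and against stroma are uncertain. MMP2 was the 1 member that was lower in perivascular cells (-0.93 ± 0.27), in 5 of 6 ewes.

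Granulosa cells were then divided by clustering them alone and named from marker lists of the study for early (eGC), cumulus (CC) and mural (mGC) granulosa cells. This gave 384 eGC-like, 349 CC-like and 921 mGC-like cells, with 193 cycling cells and 1048 left unnamed. A list for atretic granulosa cells (aGC) was used too, but no sub-cluster was named from it. TIMP1 is itself on the mural list of the study and was not used for the names. The mGC-like cells were 31.8% of the granulosa cells and held 98.7% of their MMP9 UMI, 95.6% of those of TIMP1, 82.8% of those of MMP1, 60.8% of those of TIMP2 and 38.1% of those of TIMP3. For the sparse MMP14, MMP19 and MMP2 the shares were 83.7% (118 UMI), 97.0% (32 UMI) and 55.3% (21 UMI). Such shares also follow depth, with a median of 12038 UMI in mGC-like cells against 8065 in all granulosa cells. Of all granulosa UMI of an ewe, mGC-like cells held from 18.0% (HLS2) to 82.8% (HLS1). MMP1, MMP9 and TIMP1 thus belonged mainly to the mGC-like cells, as did the few UMI of MMP14 and MMP19. TIMP3 was spread over the states.

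**Figure D2:**
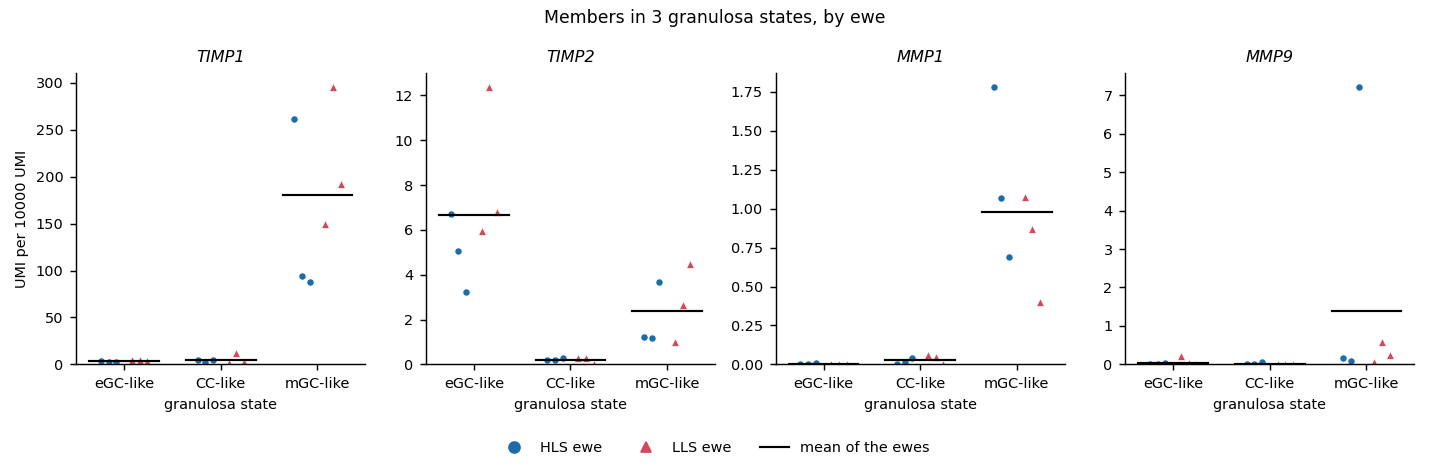
Level of TIMP1, TIMP2, MMP1 and MMP9 (UMI per 10000 UMI) in eGC-like, CC-like and mGC-like cells, with a circle for each HLS ewe, a triangle for each LLS ewe and a line for the mean. TIMP1 stood at 87.8 to 295 in mGC-like cells and at 1.31 to 11.9 in CC-like cells.

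TIMP1 in mGC-like cells was 261, 94.2 and 87.8 in HLS1 to HLS3 and 149, 295 and 192 in LLS1 to LLS3 (180 ± 85.9). In CC-like cells it was 4.50 ± 3.83, with LLS2 highest at 11.9, and in eGC-like cells 3.43 ± 0.781. No ewe's mGC-like value overlapped those of the other states. MMP1 in mGC-like cells was 1.78, 1.07, 0.692, 1.07, 0.866 and 0.402 in the same order (0.9804 ± 0.466), and the CC-like and eGC-like cells held 12 UMI and 1 UMI. TIMP2 took another course, at 6.73, 5.06 and 3.23 in the HLS and 5.94, 12.4 and 6.78 in the LLS ewes in eGC-like cells (6.68 ± 3.08), 2.37 ± 1.48 in mGC-like cells and 0.216 ± 0.117 in CC-like cells. Of the 3 named states the CC-like cells, whose namesakes surround the oocyte, thus had the least TIMP2. TIMP3 was 0.314 in eGC-like, 0.268 in CC-like and 0.202 in mGC-like cells. MMP9 in mGC-like cells was 0.166, 0.0780 and 7.21 in HLS1 to HLS3 and 0.0531, 0.579 and 0.246 in LLS1 to LLS3, so that HLS3 stood far above the other 5. MMP14 was 0.109 in mGC-like cells, and MMP19 had 0 UMI in eGC-like and CC-like cells, which allows levels of up to 0.0173 and 0.0072.

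In the same model over the states, 4 members passed the filter on low counts and were tested among 8319 genes, and MMP2, MMP9, MMP14 and MMP19 did not pass it. For MMP9, 1979 of the 2277 UMI in mGC-like cells came from HLS3, so that few of the sums had counts enough. Between mGC-like and CC-like cells 3 of 4 passed, against 44.1% of all genes. All 3 were higher in mGC-like cells, where 23.7% of all genes were higher. They were TIMP1 (5.26 ± 0.24, adjusted p = 3.20e-16), MMP1 (4.86 ± 0.28, adjusted p = 7.13e-14) and TIMP2 (3.06 ± 0.35, adjusted p = 3.21e-08), each in 6 of 6 ewes. With 12 UMI in CC-like and 1 in eGC-like cells, MMP1 passed the filter through mGC-like cells. It could hardly be called in the other direction, and its size is uncertain. TIMP3 differed by -0.54 ± 0.23 and did not pass (adjusted p = 0.0568). Between mGC-like and eGC-like cells 3 of 4 passed, against 42.8% of all genes, with TIMP1 (5.74 ± 0.25) and MMP1 higher and TIMP2 lower in mGC-like cells (-1.46 ± 0.26, adjusted p = 4.81e-05). The sign of this TIMP2 difference was not stable under other settings: it was 3.10 with a mitochondrial limit of 20%, 0.58 with a lower clustering resolution and 0.11 with cells named 1 by 1 from their own marker scores. The cause was not tested. CC-like and eGC-like cells differed in 1 of 4, against 35.6% of all genes, namely TIMP2 (-4.53 ± 0.35, adjusted p = 3.23e-10), which was -0.34 and not called with the mitochondrial limit of 20%. The immediate early genes also moved between the states: of 9 tested, 6 were lower in mGC-like than in CC-like cells and 9 lower than in eGC-like cells. Their part in these differences was not tested.

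**Figure D3:**
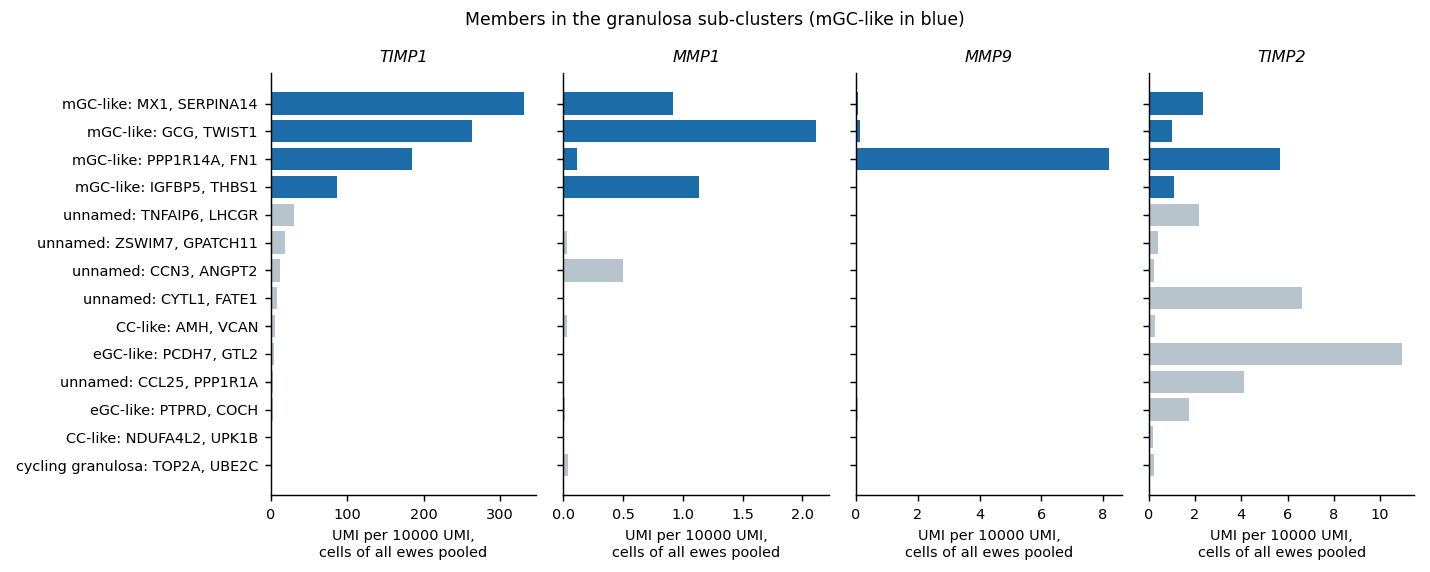
Level of TIMP1, MMP1, MMP9 and TIMP2 (horizontal axes, UMI per 10000 UMI, cells of all ewes together, so without an error bar) in each granulosa sub-cluster (rows, named by state and leading genes), with mGC-like sub-clusters in blue. MMP9 reached 8.20 in the mGC-like sub-cluster led by PPP1R14A and FN1, where MMP1 was 0.111.

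The mGC-like cells formed 4 sub-clusters, and MMP1 and MMP9 fell in different ones. The sub-cluster led by PPP1R14A, FN1 and C14H19orf33, with FBN1 (190 cells, of which 80 were from HLS3 and 5 to 43 from each other ewe), had a pooled MMP9 level of 8.20 but an MMP1 level of 0.111. In the 4 ewes with at least 10 of these cells MMP9 was 0.454 (HLS1), 16.6 (HLS3), 4.77 (LLS2) and 0.386 (LLS3), so the pooled level mainly follows HLS3. The mGC score of this sub-cluster was 1.65, with stromal next at 1.02, and no mGC marker was among its leading genes. The 3 others were led by IGFBP5, THBS1 and RUNX2 (328 cells), by GCG and TWIST1 (206 cells, 181 of them from HLS1) and by the interferon-induced MX1 and ISG15 (197 cells, 194 of them from LLS2). They had MMP1 levels of 1.13, 2.12 and 0.922 and MMP9 levels of 0.0337, 0.115 and 0.0461. TIMP1 was high in all 4, at 184 in the PPP1R14A sub-cluster and 87.1, 263 and 331 in the others. TIMP2 was 5.68 in the PPP1R14A sub-cluster, where MMP14 was 0.155 (42 UMI) and MMP19 was 0.0776 (21 UMI). Because GCG and MX1 sub-clusters were nearly those of 1 ewe each, sub-cluster and ewe cannot be told apart there.

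Cell by cell the ewes were not alike. Of the 921 mGC-like cells 283 had a UMI of MMP1, 84 had one of MMP9 and 9 had both, so that MMP9 was found in 3.18% of the cells with MMP1 and in 11.8% of those without. In HLS3, which held most MMP9, 53 of 207 mGC-like cells had MMP1, 47 had MMP9 and 4 had both, which is 7.55% of the cells with MMP1, against 27.9% with MMP9 among the rest. HLS1, with 96 of the MMP1 cells and 5 of those with both, went the other way, at 5.21% against 2.63%. The remaining 4 ewes had 0 cells with both. For comparison, 5 of 1918 theca cells had a UMI of MMP1 and 13 one of MMP9, at a median of 14217.5 UMI per cell against 12038 in mGC-like cells. Because cells of 1 ewe are not replicates, these shares are a description, and the level of free RNA was not estimated.

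Outside the mGC-like cells, MMP1 was counted in the largest unnamed granulosa sub-cluster, led by CCN3 and ANGPT2 (533 cells, 0.502), where TIMP1 was 11.9. The best marker score of these cells was that of the aGC list (0.477, eGC next at 0.433), under the limit of 0.5 for a name. In the unnamed sub-cluster led by TNFAIP6, LHCGR and CYP19 (137 cells, 103 of them from LLS1) there was 0 UMI of MMP1 and the TIMP1 level was 30.003. TNFAIP6, LHCGR and CYP19 are genes of granulosa cells near ovulation, but LHCGR is also a theca marker here. The best marker score of this sub-cluster was that of theca, well above the next (CC), with too few theca markers detected for a name. TIMP2 was highest in the eGC-like sub-cluster led by PCDH7 (10.9), followed by the unnamed one led by CYTL1 (6.62). The other eGC-like sub-cluster, led by PTPRD and COCH (171 cells, 128 of them from HLS3), had only 1.75, so the TIMP2 of the eGC-like cells came mainly from 1 of their 2 sub-clusters (795 of 971 UMI). That PCDH7 sub-cluster had an eGC marker score of 1.29, but no eGC marker was among its leading genes. PCDH7 was also a leading gene of the stromal cluster with ACTA2.

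The ewes also differed in the share of mGC-like cells among the granulosa cells. This share was 72.9% in HLS1, 15.4% in HLS2, 23.5% in HLS3, 25.5% in LLS1, 44.7% in LLS2 and 23.2% in LLS3. HLS1 and LLS2, in this order, had the highest share, the highest TIMP1 and the highest MMP1 in granulosa cells. The part of the share in the differences between ewes was not tested.

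The groups of litter size were compared in each type over the 3 HLS and 3 LLS ewes, to ask whether the ovaries of prolific ewes differ in these genes. No gene, and so no member, passed the adjusted threshold of edgeR's quasi-likelihood test in any of the 6 types, with 0% of all genes called in each. At an unadjusted p under 0.05 there were 557 genes in granulosa, 410 in theca, 618 in stromal, 298 in perivascular, 147 in endothelial and 484 in immune cells, which is 4.65%, 3.35%, 4.51%, 2.75%, 0.982% and 4.71% of the genes tested. DESeq2 called 1, 3, 3, 1, 4 and 28. The members tested were 6, 5, 6, 6, 7 and 4 in these types, the others being too low. Of these an unadjusted p under 0.05 was found for 1 in stromal and 2 in immune cells.

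**Figure D4:**
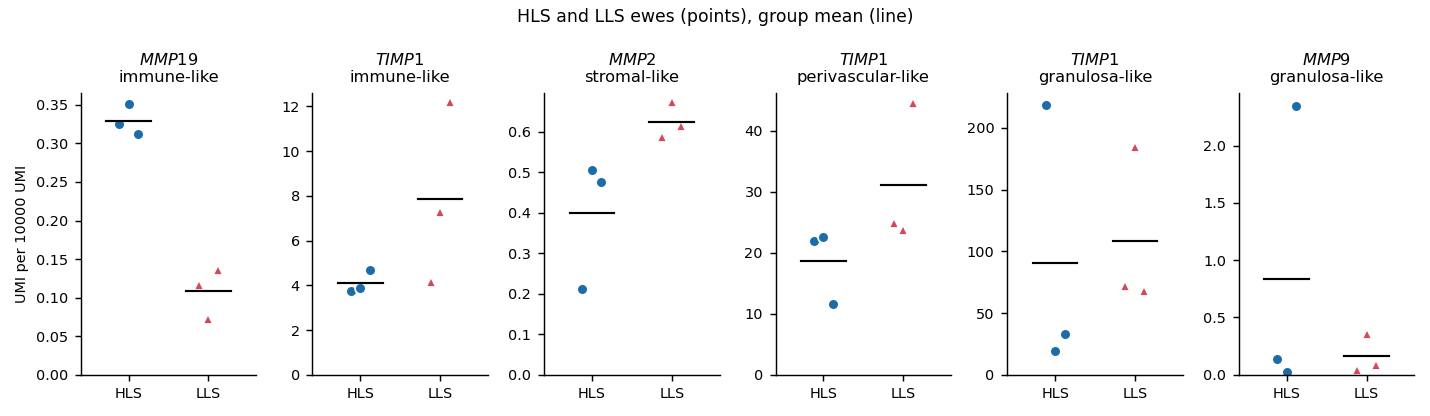
Level (UMI per 10000 UMI) of MMP19, TIMP1, MMP2 and MMP9 in 6 pairs of gene and cell type for the 3 HLS (circles) and the 3 LLS ewes (triangles), with the group mean as a line. In immune cells MMP19 stood at 0.312 to 0.352 in HLS and at 0.0721 to 0.136 in LLS ewes.

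MMP19 in immune cells was higher in HLS than in LLS ewes by 1.69 ± 0.29 on the log2 scale (mean levels 0.329 and 0.108, 281 UMI), with an adjusted p of 0.200 in edgeR. Over 16 alternatives the difference lay between 1.45 and 1.89 and the adjusted p between 3.65e-05 (no filter on low counts) and 0.406 (without HLS1), and DESeq2 gave 0.00548. The groups did not overlap, as for 3.89% of all genes tested in immune cells with HLS higher and 5.44% with LLS higher. The macrophage-type cluster with C1QA, C1QB and C1QC carried this difference, at 0.543, 0.510 and 0.548 in the HLS and 0.154, 0.101 and 0.209 in the LLS ewes, and the T cell cluster had 2 UMI. The C1Q cluster was 30%, 42.5% and 31.2% of the immune cells in the HLS and 54.0%, 42.8% and 38.8% in the LLS ewes, with overlap between the groups. The summed level of the 9 immediate early genes in immune cells was 85.7 to 88.9 in HLS and 92.5 to 120 in LLS ewes. That of the 4 theca markers, of which STAR was highest in immune cells, was 0.414 to 0.852 in HLS and 0.185 to 0.379 in LLS ewes. The part of either in the MMP19 difference was not tested.

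TIMP1 in immune cells was lower in HLS ewes (-0.88 ± 0.37, adjusted p = 0.936 in edgeR), with 3.75, 3.89 and 4.70 against 4.15, 7.29 and 12.2. The groups overlapped, and without LLS3 the difference was -0.38. MMP2 in stromal cells was also lower in HLS ewes (-0.60 ± 0.24, adjusted p = 0.838 in edgeR), with every HLS value under every LLS value, and was -0.36 without HLS1. Non-overlap with LLS higher occurred for 5.91% of all genes tested in stroma, and with HLS higher for 3.61%. The 6 epithelial markers summed to 0.0136 to 0.0625 in HLS and 0.0827 to 0.211 in LLS stroma, and their part was not tested.

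In the other types the members whose groups did not overlap were 1 of 6 in granulosa (TIMP2, with 1.47, 0.634 and 1.67 in HLS against 1.81, 2.73 and 2.18 in LLS ewes), where 12.6% of all genes did so with LLS higher. In theca it was 1 of 5 (MMP14, 0.00756, 0.0162 and 0.0198 against 0.0284, 0.0322 and 0.0275, from 54 UMI), against 7.75%. Theca cells of the LLS ewes also had more of the 5 luteal markers (8.01 to 20.2, against 4.63 to 6.58) and of the immediate early genes (89.1 to 131, against 68.8 to 83.9), whose part was not tested. The luteal markers were OXT, HSD3B1, CYP11A1, STAR and PTGFR, and STAR is also 1 of the theca markers. In perivascular cells it was 1 of 6 (TIMP1, 21.9, 22.5 and 11.6 against 24.9, 23.6 and 44.6), against 5.7%, and the epithelial markers were 0.0036 to 0.0192 against 0.0295 to 0.072, their part not tested. These epithelial levels were near the floor, with up to 5 of the 6 markers at 0 UMI in an ewe. The marker sums named for the groups here and above were picked because they did not overlap, from the sums of all types and marker lists. In endothelial cells none of the 7 did, against 3.62% in either direction. Non-overlap with HLS higher occurred for 1.96% of all genes in granulosa, 2.13% in theca and 2.58% in perivascular cells. With at most 1 tested member in each of these types, the counts do not set the members apart from all genes. MMP2 in granulosa cells, too low to be tested (38 UMI), did not overlap either. It was 0.0153, 0.00704 and 0.00939 in HLS against 0.0166, 0.0213 and 0.0209 in LLS ewes, and the shares cover tested genes only.

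The study compared groups over cells. With cells as units in a Wilcoxon rank-sum test (p under 0.05 and a change of log2(mean + 1) over 0.58), TIMP1 and TIMP2 in granulosa, TIMP1 in stromal and TIMP1 in perivascular cells were called, all higher in LLS. That is 2 of 6 members in granulosa, where 37 of 11974 genes were called. In stromal cells it is 1 of 6, against 21 of 13700 genes, and in perivascular cells 1 of 6, against 18 of 10837. Genes of low level can hardly reach this limit, since 1 is added to the mean. The levels per ewe are the same as above, where the spread between ewes of a group left TIMP1 in granulosa cells at 90.3 ± 111 in HLS and 108 ± 66.3 in LLS ewes (n = 3 each).

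The related proteases, inhibitors and activators were read from 7 lists holding 69 measured genes. Among the ADAMTS proteases, which cut proteoglycans and procollagens and of which TIMP3 inhibits several, ADAMTS4 was highest in perivascular cells (12.1 ± 4.33, 2.85 on the log2 scale above stroma) and ADAMTS1 was 5.13 in endothelial cells. Of 14 tested ADAMTS genes 5 were higher and 5 lower in perivascular than in stromal cells, against the 36.8% of all genes that differed, with a list median of -0.30 against -0.03 over all genes tested. ADAMTS14, a procollagen N-propeptidase, was 0.159 in granulosa cells (4.18 above stroma) and, like MMP1, was counted mainly in the mGC-like cells, with 395 UMI (0.443 ± 0.416) there, 2 in CC-like and 0 in eGC-like cells.

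The plasminogen system, which activates proMMPs through plasmin, also differed by type. SERPINE2, an inhibitor of plasminogen activators and thrombin, was 23.0 ± 3.95 in granulosa cells (3.27 above stroma), while PLAU, the urokinase-type activator, was 0.901 in endothelial and 0.847 in perivascular cells (4.62 and 4.52 above stroma). In mGC-like cells all 5 tested genes of this list were higher than in CC-like cells and all 5 higher than in eGC-like cells, where 23.7% and 22.3% of all genes were higher, with a list median against CC-like cells of 2.67, where that of all genes tested was 0.03. PLAUR, the urokinase receptor, had 345 UMI in mGC-like, 4 in CC-like and 1 in eGC-like cells, so no size is given for its differences. It passed the filter on low counts only through mGC-like cells and could hardly be called lower there. The counts and the median of the list over the states include it and are a description. PLAT, the tissue activator, was higher by 2.67 than in CC-like cells. Against granulosa, 5 of 6 tested genes of the list were lower in theca and none was higher, against 23.9% of all genes that were lower, with a median of -2.85 against -0.02 over all genes.

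**Figure D5:**
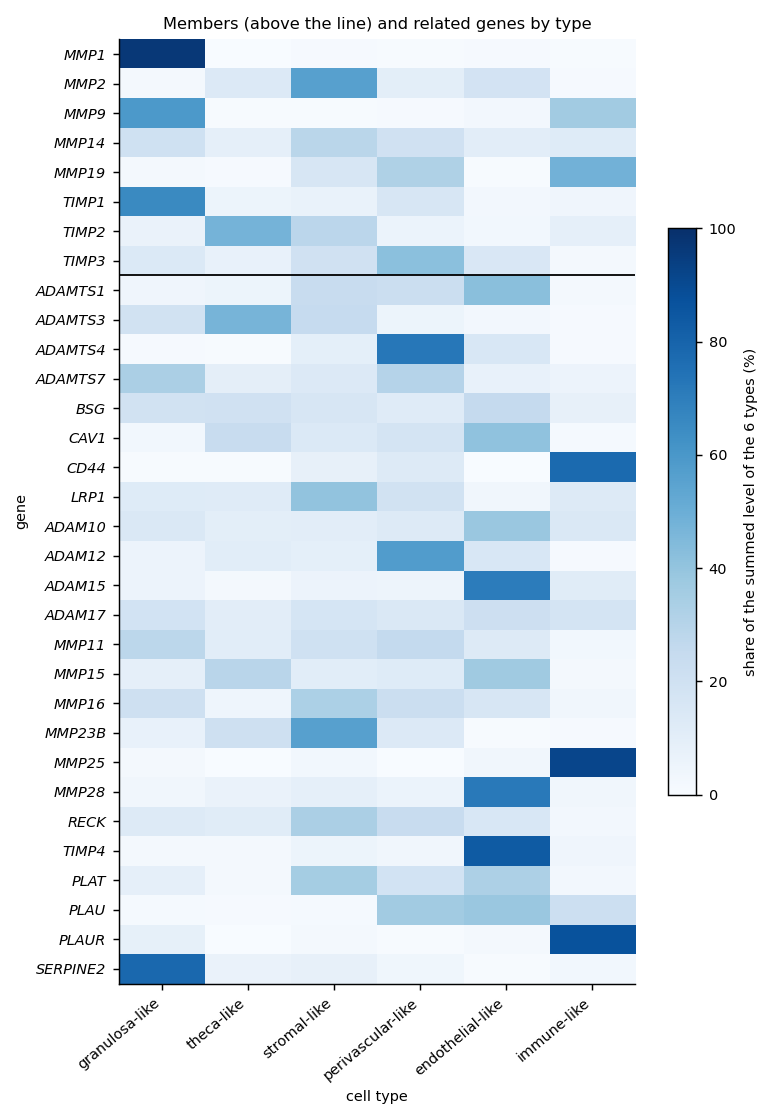
Mean level over 6 ewes of the 8 members and of related genes (rows) in each cell type (columns), as a percent of the gene's level summed over the 6 types (colour). SERPINE2 has its darkest field in granulosa, ADAMTS4 in perivascular and MMP23B in stromal cells.

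Of the other MMPs only 5 of 15 had enough counts to be tested between types. MMP23B, a membrane-anchored member, was 1.25 ± 0.151 in stromal cells and lower in granulosa (-3.09) and endothelial cells (-6.46). MMP28 was 0.369 in endothelial cells (2.99 above stroma), which also had TIMP4, the remaining TIMP, at 0.242 (3.87 above stroma). RECK, a membrane-bound inhibitor of MMPs, was 0.398 in stromal cells. Of the membrane ADAMs, ADAM15 was 1.36 in endothelial cells (3.75 above stroma) and ADAM12 was 1.2 in perivascular cells. CD44, which holds MMP9 on the cell surface, and PLAUR were highest in immune cells at 2.54 and 1.18. No gene of these lists differed between HLS and LLS ewes at the adjusted threshold in any type.

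For each member the genes with the most similar pattern were found by Pearson's r of log2 CPM over the 36 sums of 6 types and 6 ewes, among 14480 genes. These sums share ewes and types, so r is a description. MMP1 lay nearest to FSHR, the FSH receptor (r = 0.933), NPTX2 and XIRP1. TIMP2 lay nearest to TNNT2 (0.932), TMSB15B and WFIKKN2, MMP19 to EMP3 (0.930), SLC1A2 and ATP8B4, and MMP2 to IGFBP4 (0.899), NID1 and LOC101106492. TIMP3 lay nearest to ANKRD10 (0.917) and PHF13. The values were lower for MMP9 (BCL2L11, 0.846), TIMP1 (ANKRD1, 0.837) and MMP14 (RNF145, 0.817).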

How the data were processed

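Deposited were 6 matrices of raw UMI counts per gene and barcode, 1 per ewe, made by the authors from 10x 3' libraries with Cell Ranger v5.0.0 and the STAR aligner. The genome build is not given in the sources used here. Totals per library ran from 43329214 to 75549906 UMI. From these counts, barcodes with at least 200 genes and 1000 UMI, complexity (log10 genes per log10 UMI) of at least 0.7, at most 10% mitochondrial and 5% hemoglobin UMI were kept (38464), after the filters the study states, and 2007 (5.22%) were removed as doublets by a neighbour score against simulated doublets, since the study's caller was not at hand.

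Cells were clustered (30 components of 2000 variable genes, 20 neighbours, Leiden resolution 0.8, leidenalg 0.10.2), without the members and related genes, and named from fixed markers, so that the cell types here are rebuilt and may differ from those of the study. One sub-cluster of 60 cells within the granulosa cells carried endothelial markers and was left out of the states. UMI were summed per ewe and type (at least 10 cells) and tested with edgeR 4.0.16 (quasi-likelihood, TMM factors, filterByExpr), between HLS and LLS without and between types or states with the ewe as a block, with DESeq2 1.42.0 as an alternative. Adjusted p-values are those of Benjamini and Hochberg over all genes tested. The scripts were tested on simulated data.

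All 8 members are given in every type. The change between HLS and LLS is printed where its unadjusted p was under 0.05. Of the 7 lists of related genes (73 names, 69 measured), those with the largest changes past the threshold and the highest levels were named, and for each member up to 3 nearest genes; a few genes that these rules chose are not reported here. The members and lists were chosen with earlier results of these data known. Levels of up to 3 UMI and shares of cells cover counting error only. Alternatives were other cell filters, clusterings, scalings, tests and leaving out each ewe. Replicate numbers were not used to pair ewes in the main fits. Deviations of ewes with the same number correlated between -0.391 and 0.287 over 18 pairs. The correlation was positive in every type for number 3 and negative in every type for numbers 1 and 2.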

Additional observations from a re-analysis of the deposited data

Results flagged for a closer look

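A level was flagged where 1 of the 6 ewes lay farther from its nearest neighbour than Dixon's 95% criterion allows, which chance alone does in about 1 of 20 groups. Of 42 combinations of member and type or state with at least 100 UMI, 5 were flagged. MMP1 in granulosa cells was 1.47 in HLS1, with the next ewe at 0.565. MMP9 in granulosa cells was 2.35 in HLS3, with the next at 0.356, and in mGC-like cells 7.21 in the same ewe, with the next at 0.579. These MMP9 values rest on the same 1979 UMI of mGC-like cells and are 1 observation. MMP9 in immune cells was 1.16 in LLS1, with the next ewe at 0.349. TIMP1 in CC-like cells was 11.9 in LLS2 (1268 UMI in 97 cells), with the next at 4.44. LLS2 also had the highest TIMP1 in mGC-like cells (295), and the part of free RNA in its CC-like value was not tested.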

How the results depend on the processing

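Of the changes printed for members and related genes, 3786 values under alternatives kept their direction and side of the threshold, 197 lost the call, 2 gained it and 9 reversed. The reversals were all in contrasts with eGC-like cells: against mGC-like cells TIMP2 was 3.10, ADAMTS1 0.22, MMP11 0.76 and ADAMTS7 -0.21 with a mitochondrial limit of 20%, TIMP2 was 0.58 at a lower clustering resolution and 0.11 with cells named by their own scores, and from eGC-like to CC-like cells FURIN was -0.38 and ADAM9 0.35 at the 20% limit and FURIN -0.26 with own scores. The cause was not tested. Calls between HLS and LLS in granulosa, theca, stromal, perivascular, endothelial and immune cells were 1, 3, 3, 1, 4 and 28 genes with DESeq2 and 37, 18, 21, 18, 19 and 42 with cells as replicates, which called 2 members in granulosa and 1 each in stromal and perivascular cells. Without a filter on low counts 63 genes were called in theca, 13 in perivascular and 184 in immune cells, with 2 members in immune cells, where DESeq2 called 1. Without TMM factors 1 immune gene was called, and the median of all genes moved to -0.17 in granulosa and -0.16 in theca cells, to -0.21 for theca against granulosa, -0.19 for theca against stroma and -0.26 for CC-like against eGC-like cells. With the replicate block 1 immune gene and no member was called, and 10 of 36 sums, all of number 3, correlated best with another of the same number. Leaving out 1 ewe gave 0 to 1 genes in theca (1 without HLS3), 0 to 3 in stromal (3 without LLS1), 0 to 1 in perivascular (1 without LLS1) and 0 to 2 in immune cells (2 without HLS3 or LLS2, 1 without LLS1). Members called between perivascular and stromal cells were 3 with own scores, 3 with no ewe block and 3 to 6 with an ewe left out. For mGC-like against CC-like cells they were 5 at the 20% limit, 6 without the filter and 2 to 4 with an ewe left out, and 2352 genes were called with own scores and 2156 to 3552 with an ewe left out, here and below fewest without HLS3. Against eGC-like cells they were 6 and 2 to 5, with 1729 genes (own scores) and 1974 to 3430. For CC-like against eGC-like cells they were 2 (20% limit), 3 (own scores), 3 (no filter) and 1 to 2, with 1741, 1474 and 1767 to 2881 genes. At that resolution the CC-like cells were too few to test. The mean levels of the 8 members, each in its highest type, moved by less than 1 SD in 64 values under alternatives. Most of these values leave out 1 ewe, which cannot move a mean over 6 ewes by 1 SD. Only the means without doublet removal or with cells named by their own scores could have passed this limit, and they stayed within it. The mean of MMP9 in granulosa cells fell from 0.498 to 0.129 without HLS3, whose value also makes its SD wide (0.913). Depth limits MMP2, MMP14 and MMP19 in the granulosa states, and MMP1 outside granulosa cells, while MMP9 in the states rests mostly on HLS3.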
